A study of Mus musculus with 10 samples.

Results

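The spliceosome and splicing factor genes described here are the protein-coding mouse genes whose symbols start with Snrp, Sf3a, Sf3b, Prpf, Srsf or Hnrnp, or with Lsm followed by a digit. They number 67 of the 19235 protein-coding genes examined, and 12 further genes that meet the same rule lie on chromosomes 8 and 11, which were left out. The choice used gene names alone and no measured value, but it was made with earlier results of these data known. By role, 8 encode Sm ring proteins, 11 other proteins of the U1 and U2 particles, 12 Prp proteins, 8 Lsm proteins, 9 SR proteins and 19 hnRNP proteins.

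The study asked where the SETα and SETβ isoforms of the histone chaperone SET, each carrying an HA tag, bind chromatin in KH2 mouse embryonic stem cells, a line in which a transgene is switched on by doxycycline. SETα addback and SETβ addback are SET-KO cells that express HA-SETα or HA-SETβ, and SETα overexpression and SETβ overexpression are cells with SET intact that express the same proteins, so the transgene adds to the cell's own SET there. All 4 groups received 1 µg/ml doxycycline for 24 h, were depleted of MEF feeder cells, and were crosslinked with DSG and then formaldehyde before precipitation with an HA antibody. Each group has 2 libraries with a peak list each, and 1 list of peaks filtered for reproducibility by the irreproducible discovery rate (IDR).

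The groups differ in cell line as well as in genotype and isoform, and the contribution of each cannot be told apart. The labels do not say that the 2 libraries of a group came from separate cultures, so the spread between them may be technical. Peaks measure DNA recovered with the tag and say nothing of RNA levels or of splicing. Counts have no background from cells without the tagged protein beside them, as the SET-KO libraries grown without doxycycline were not used here. Peaks on the chromosomes left out above and on the mitochondrial genome were removed before lists were counted and ranked. After this removal, library lists held 22176 and 15701 peaks in SETα addback, 2518 and 9768 in SETβ addback, 4807 and 7675 in SETα overexpression, and 1343 and 2869 in SETβ overexpression (replicates 1 and 2). IDR lists, reduced in the same way, held 530, 485, 127 and 101 peaks in the same order of groups. Read depth is not given in the peak lists.

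The spliceosome removes introns from precursor mRNA. It assembles from small nuclear ribonucleoprotein particles (snRNPs), in which a ring of Sm proteins, or of the related Lsm proteins in the U6 particle, surrounds a small RNA. U1 recognises the donor splice site, U2 with its SF3A and SF3B complexes engages the branch point, and Prp proteins act in the tri-snRNP and in the rearrangements around catalysis, while SR and hnRNP proteins bind the transcript and favour or oppose the use of particular sites. Most of these genes are housekeeping genes, expressed in nearly all cells from promoters within CpG islands.

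A gene was counted as having a peak when a peak overlapped the 1 kb on either side of an end of the gene. In SETα addback, 47 of the 67 splicing genes (70.1%) had a peak in replicate 1, against 34.3% of all protein-coding genes, and 49 (73.1%) had one in replicate 2, against 31.8%. In SETβ addback the counts were 14 (20.9%) in replicate 1, against 8.41% of all genes, and 21 (31.3%) in replicate 2, against 18.4%. Shares of the splicing genes were thus 1.71 to 2.49 times those of all genes in the 4 addback libraries.

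SET-intact cells gave few such peaks. SETα overexpression had a peak at 0 splicing genes in replicate 1 and at 1 (1.49%) in replicate 2, where 0.983% and 1.90% of all genes had one. SETβ overexpression had 0 in replicate 1 (0.338% of all genes) and 5 (7.46%) in replicate 2 (1.85% of all genes). The mean shares were 71.6% ± 2.11 (SD, n = 2) in SETα addback, 26.1% ± 7.39 (SD, n = 2) in SETβ addback, 0.746% ± 1.06 (SD, n = 2) in SETα overexpression and 3.73% ± 5.28 (SD, n = 2) in SETβ overexpression.

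**Figure D1:**
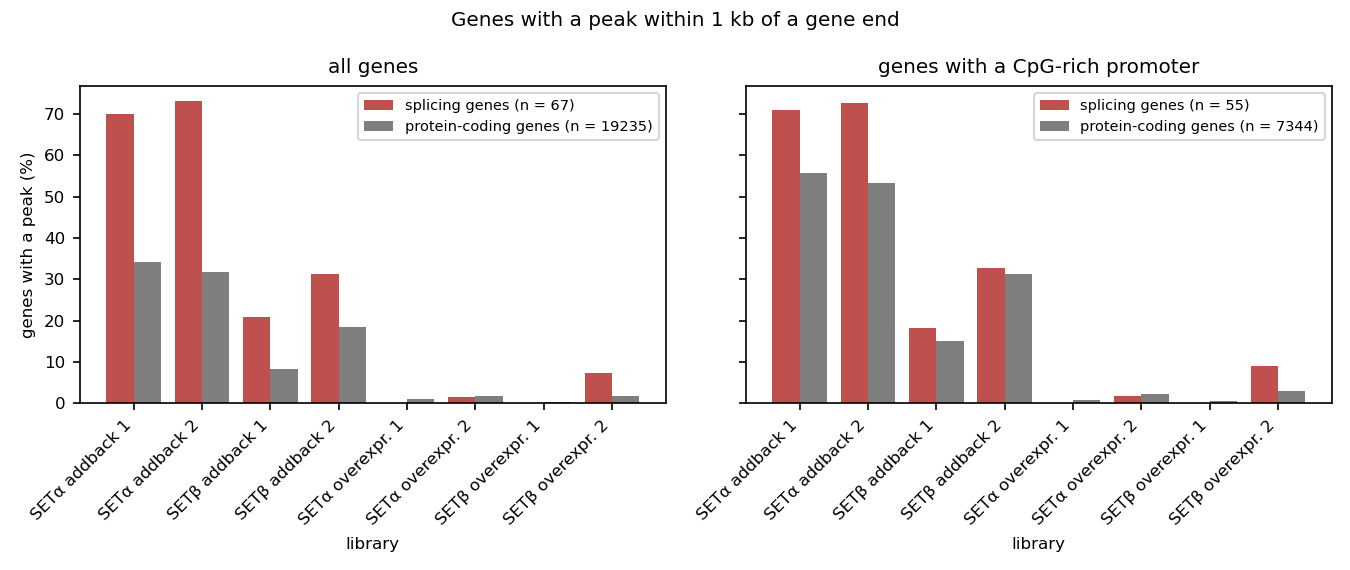
Percent of splicing genes and of protein-coding genes with a peak within 1 kb of a gene end, for each library, over all genes (left, n = 67 and 19235) and over genes with a CpG-rich promoter (right, n = 55 and 7344). Bars are shares of genes in single libraries. Over all genes, splicing genes with a peak made up 70.1% and 73.1% in SETα addback, 20.9% and 31.3% in SETβ addback, and 0% to 7.46% in the overexpression libraries.

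The mean share was 46.6 percentage points higher in the addback than in the overexpression groups, where the replicate spread was 4.69 points, and no addback library overlapped an overexpression library. Within SET-KO cells, SETα exceeded SETβ by 45.5 points against a spread of 5.43, and the libraries did not overlap. That gap between isoforms was seen with lists of very unequal length. With the strongest 1343 peaks of each library, as many as the smallest list holds, it was 1.49 points, and the splicing genes with a peak numbered 9 and 7 in SETα addback (4.65% and 5.77% of all genes) and 8 and 6 in SETβ addback (5.39% and 4.96% of all genes). Restricting the lists to a −log10 q of 5 or more left 2.24 points, with 7 and 5 splicing genes in SETα addback (3.88% and 4.52% of all genes) and 5 and 4 in SETβ addback (2.69% and 2.62% of all genes). Between addback and overexpression the gap was 10.1 points with lists of equal length and 7.84 with the q threshold. In SET-intact cells SETα minus SETβ was -2.99 points against a spread of 3.81, and it was 0.746 without SETβ overexpression replicate 2 and -6.72 without SETβ overexpression replicate 1, so its sign and size rest on single libraries. No test was run on these shares, which are counts over a chosen set of genes, and each difference is set only against the spread between replicates. Whether the overexpression and addback lists were called against the same control library is not given in the sources used here, and its part in the gap between them was not tested.

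A peak in at least 1 of the 8 libraries was found at 58 splicing genes (86.6%), against 48.3% of all genes. Both SETα addback libraries had one at 39 (58.2%), against 22.0%. In 17 (25.4%) both SETα addback libraries and neither SETβ addback library had one, against 10.1% of all genes, and the opposite pattern, both SETβ libraries and neither SETα library, was met by 0 splicing genes and 0.187% of all genes. All 4 addback libraries had a peak at 7 (10.4%), against 5.15%.

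**Figure D2:**
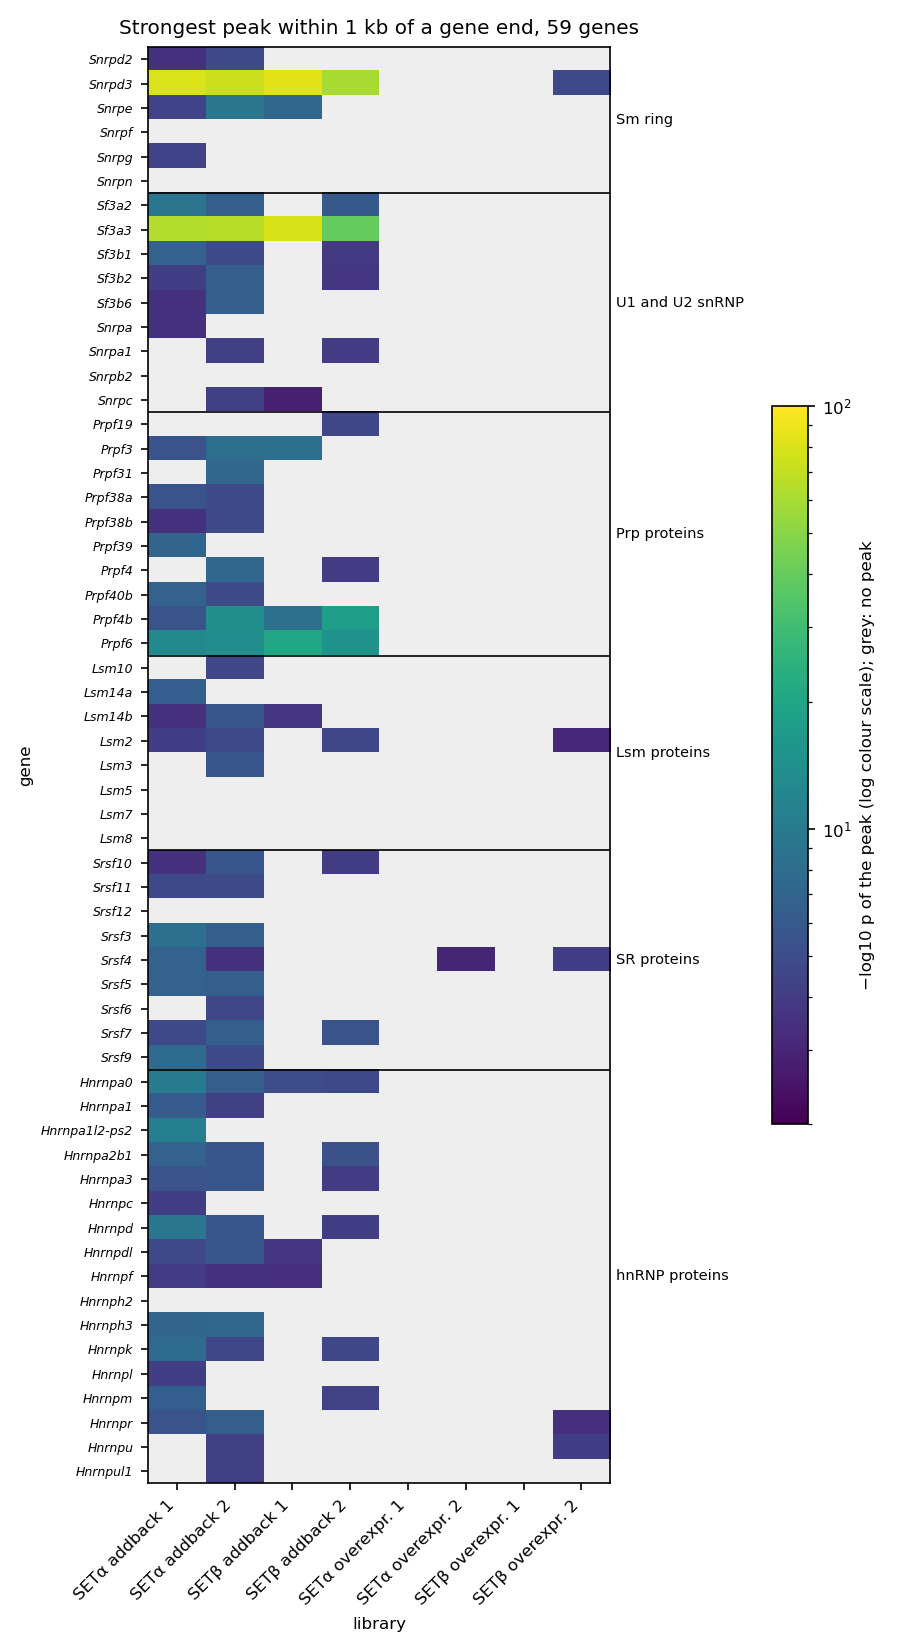
Peaks at the 59 splicing genes with a RefSeq start (rows, grouped by role) in each of the 8 libraries (columns), with the colour giving the −log10 p of the strongest peak on a log colour scale and grey marking no peak. Filled cells gather in the SETα addback columns, the rows of Snrpd3 and Sf3a3 are the brightest, and the overexpression columns hold 6 filled cells at 5 genes.

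Promoter type differed between the splicing genes and all genes. RefSeq start sites on GRCm38.p6 were available for 59 of the splicing genes and 15496 protein-coding genes, each with the 300 bases around the start. Of those, 55 of the 59 (93.2%) had a CpG-rich promoter, defined as at least 0.6 of the CpG count expected from base composition, against 47.4% of all genes. Among CpG-rich promoters alone, 70.9% and 72.7% of the splicing genes had a peak with SETα addback, against 55.6% and 53.3% of all such genes. In SETβ addback the shares were 18.2% and 32.7%, against 15.1% and 31.2%. The ratio of splicing genes to all genes was therefore 1.28, 1.36, 1.21 and 1.05 in these 4 libraries, in place of 2.05, 2.30, 2.49 and 1.71 without the restriction. The part of promoter type in these shares was not tested, and the restriction was added after the data were seen.

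The IDR lists held few of the splicing genes. SETα addback had an IDR peak at 3 (4.48%, 95% Wilson interval 1.53 to 12.4), against 2.78% of all genes, and SETβ addback had one at the same 3 genes, against 2.62%. The intervals, which cover counting error only, include the shares of all genes. SETα overexpression and SETβ overexpression had 0 of 67 each, with a Wilson upper limit of 5.42%, against 0.0676% and 0.0260% of all genes. Snrpd3, Sf3a3 and Prpf6 were the 3 genes. When peaks were counted at annotated transcription starts alone, Srsf11 joined them and 4 of 59 (6.78%) had an IDR peak in each addback list, against 2.78% and 2.69% of all genes.

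The 250 bases upstream of the start are shown for these 4 genes because they carry the reproducible peaks, with Snrpf as 1 of the genes that had no peak at a gene end in any library. They are RefSeq sequence on GRCm38.p6, read 5′ to 3′ towards the gene, and capitals mark the letters CGGAAG or their reverse complement CTTCCG, found in many ETS family sites. Shorter or variant forms of such sites were not marked. The regions are chr10:75517792-75518041 (plus strand) for Snrpd3, chr4:124714611-124714860 (plus) for Sf3a3, chr2:181601069-181601318 (plus) for Prpf6, chr3:158031749-158031998 (minus) for an internal start of Srsf11 and chr10:93589659-93589908 (minus) for Snrpf.
Snrpd3: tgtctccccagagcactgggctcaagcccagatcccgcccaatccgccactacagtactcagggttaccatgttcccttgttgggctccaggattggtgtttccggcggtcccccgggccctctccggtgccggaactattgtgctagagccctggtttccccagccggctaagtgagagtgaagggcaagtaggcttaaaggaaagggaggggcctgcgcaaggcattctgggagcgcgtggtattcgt
Sf3a3: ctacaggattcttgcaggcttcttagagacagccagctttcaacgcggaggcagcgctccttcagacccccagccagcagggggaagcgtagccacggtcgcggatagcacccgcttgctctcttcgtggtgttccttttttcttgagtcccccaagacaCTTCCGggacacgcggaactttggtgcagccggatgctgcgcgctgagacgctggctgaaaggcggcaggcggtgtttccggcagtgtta
Prpf6: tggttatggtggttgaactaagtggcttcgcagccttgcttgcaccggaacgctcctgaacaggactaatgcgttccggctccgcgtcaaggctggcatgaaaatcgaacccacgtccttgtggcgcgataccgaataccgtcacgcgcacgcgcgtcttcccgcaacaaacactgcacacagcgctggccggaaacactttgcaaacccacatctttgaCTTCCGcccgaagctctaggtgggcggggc
Srsf11: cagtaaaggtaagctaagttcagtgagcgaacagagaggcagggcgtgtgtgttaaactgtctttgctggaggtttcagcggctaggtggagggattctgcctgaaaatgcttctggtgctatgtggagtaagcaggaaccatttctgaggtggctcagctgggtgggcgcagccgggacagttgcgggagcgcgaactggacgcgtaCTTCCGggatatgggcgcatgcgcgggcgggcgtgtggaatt
Snrpf: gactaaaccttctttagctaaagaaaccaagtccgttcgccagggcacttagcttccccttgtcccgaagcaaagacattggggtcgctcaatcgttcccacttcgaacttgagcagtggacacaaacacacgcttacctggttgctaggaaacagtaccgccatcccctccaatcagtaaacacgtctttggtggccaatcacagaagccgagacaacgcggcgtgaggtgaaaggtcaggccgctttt
The first base of the match lies 90 bases before the start in Sf3a3, 30 in Prpf6 and 42 in Srsf11, each time as CTTCCG. Snrpd3 and Snrpf have no match in this window, so the letters are present at 3 of these 4 genes with an IDR peak and not at the most strongly bound of them. Snrpf does not stand for all genes without a peak: the letters were in 3 of the 8 promoters of splicing genes with no library peak (37.5%), and in 51.8% of those with no addback IDR peak at a gene end. These 2 shares use the 300 bases around the outermost start, and Srsf11 counts there among genes with no IDR peak at a gene end.

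Counts by role are read against the shares of all protein-coding genes, 34.3% and 31.8% in SETα addback and 8.41% and 18.4% in SETβ addback, and rest on lists of unequal length. Values given for a gene are those of the strongest peak near either of its ends, so they need not be from the same place in each library. Among the Sm ring genes, 5 of 8 had a peak in each SETα addback library, against 3 and 1 for SETβ addback. Snrpd3, which encodes the SmD3 protein of the ring (chr10:75518042-75535440), had the strongest peaks of all the splicing genes. Its −log10 p was 80.4 and 73.3 in SETα addback replicates 1 and 2, and 83.5 and 60.1 in SETβ addback replicates 1 and 2. Fold enrichment was 18.9, 20.9, 15.5 and 12.6 in the same order. These peaks ranked 15, 20, 37 and 39 in their lists, so both isoforms placed the gene near the top. Their summits lay at -126 to -105 bases from the start, upstream of it and inside the sequence shown. In the overexpression libraries only SETβ replicate 2 had a peak, with a −log10 p of 4.76, fold of 3.15 and rank of 723. The start of Gucd1, transcribed in the opposite direction, lies 70 bases away, so a peak of one gene and of the other cannot be told apart. Its IDR peaks ranked 14 of 530 in SETα addback (chr10:75517065-75518196) and 37 of 485 in SETβ addback (chr10:75517425-75518187).

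Weaker peaks marked other Sm genes. At Snrpe, for SmE, the −log10 p was 4.40 and 9.46 in SETα addback and 7.29 in SETβ addback replicate 1, with no peak in SETβ addback replicate 2. Snrpb, for SmB, had 5.06 in SETα addback replicate 2 and 10.8 in SETβ addback replicate 1. Snrpd1, for SmD1, was found with SETα alone, at 6.15 and 5.70. Snrpd2 was likewise found with SETα alone, at 3.51 and 4.93, beside the gene Qpctl. Snrpf and Snrpn had no peak at a gene end in any library. At Snrpn, an imprinted gene whose table entry spans several starts, an annotated internal start did have one in SETα addback replicate 2 (4.60) and in SETβ addback replicate 2 (5.96).

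The U1 and U2 proteins had peaks at 7 and 8 of 11 genes in SETα addback and at 2 and 5 in SETβ addback. Sf3a3, a subunit of the SF3A complex of U2 (chr4:124714861-124732423), had a −log10 p of 64.0 and 66.0 in SETα addback and of 78.8 and 39.4 in SETβ addback. Fold enrichment was 16.1, 19.3, 12.8 and 8.89, and the ranks were 30, 28, 41 and 102. Summits lay at -82 to -63 bases from the start, near the capitals in the sequence above, and no overexpression library had a peak. The nearest other gene, a pseudogene, lies 4008 bases away, so the peak has no neighbour within the window. IDR peaks ranked 23 in SETα addback (chr4:124714436-124715183) and 99 in SETβ addback (chr4:124714457-124715097).

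Its partner Sf3a2 was bound more weakly, at 9.22 and 6.50 in SETα addback and 6.01 in SETβ addback replicate 2, next to Plekhj1. SF3B genes had peaks at 4 of 5 in each SETα addback library and at 0 and 2 in SETβ addback, from lists of unequal length, and with a −log10 q of at least 5 they had none in any library, against 2.62% to 4.52% of all genes in each addback library. Sf3b1, the largest SF3B subunit and a frequent target of mutation in blood cancers, had 6.88 and 4.93 in SETα addback and 3.91 in SETβ addback replicate 2. Sf3b2 had 4.12 and 6.50 in SETα addback and 3.74 in SETβ addback replicate 2, where both replicate 2 peaks lie at the far end of the gene, beside Pacs1. Sf3b4 (5.44 and 5.70) and Sf3b6 (3.51 and 6.50) had peaks in both SETα addback libraries and in neither SETβ library. Of the genes for U1 proteins, Snrpa had peaks in SETα addback replicate 1 alone, the stronger at 3.51, and Snrpc had 4.20 in SETα addback replicate 2 and 2.80 in SETβ addback replicate 1. Sf3b5 and Snrpb2 had none.

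Prp genes had peaks at 9 and 10 of 12 in SETα addback and at 4 and 5 in SETβ addback, and each of the 12 had one in at least 1 addback library, as did 47.5% of all genes. Prpf6, a scaffold of the tri-snRNP (chr2:181601319-181655661), had a −log10 p of 12.8 and 13.6 in SETα addback and of 21.0 and 14.6 in SETβ addback, with fold enrichment of 5.61, 5.45, 7.31 and 6.09. Each SETβ value was above each SETα value, though −log10 p from lists of unequal length is not on 1 scale. Summits lay at -111 to -59 bases from the start, and the next gene, Samd10, is 1885 bases away. IDR peaks ranked 363 in SETα addback (chr2:181600958-181601504) and 324 in SETβ addback (chr2:181601040-181601610).

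Prpf4b, a kinase that acts on splicing factors, had 5.44 and 13.9 in SETα addback and 8.36 and 17.7 in SETβ addback. Replicate 2 was the higher in both isoforms there, and the summits lay at -960 to -896 bases from the start, outside the promoter window shown for other genes. Prpf18, a factor of the second catalytic step, had 5.28 and 4.41 with SETα and 10.8 and 5.96 with SETβ. Prpf3, of the U4/U6 particle, had 5.44 and 8.20 with SETα and 8.35 in SETβ addback replicate 1. Prpf38a, Prpf38b and Prpf40b had peaks in both SETα addback libraries and no SETβ library, between 3.51 and 6.88. Prpf4, of the U4/U6 particle, had 7.33 in SETα addback replicate 2 and 3.98 in SETβ addback replicate 2, beside Cdc26. Prpf31, which binds the same particle, had 7.33 in SETα addback replicate 2 alone, and Prpf39 had 7.12 in replicate 1 alone. Prpf19, an E3 ubiquitin ligase, showed the opposite, with 1 peak of 4.61 in SETβ addback replicate 2.

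Lsm genes had the lowest shares with SETα, at 3 and 4 of 8 in SETα addback and at 1 in each SETβ addback library. The group was formed by symbol and also holds Lsm-domain proteins outside the U6 ring. Lsm14b had 3.51 and 5.70 with SETα and 3.65 in SETβ addback replicate 1. Lsm2, a subunit of the ring on U6, had 4.12 and 4.93 with SETα and 4.61 in SETβ addback replicate 2. Lsm14a (6.40 in SETα addback replicate 1), Lsm10 (4.60 in replicate 2) and Lsm3 (5.70 in replicate 2, beside Xpc) each had 1 peak. Lsm5, Lsm7 and Lsm8, which belong to the same U6 ring, had no peak in any library.

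SR genes had peaks at 7 and 8 of 9 (77.8% and 88.9%) in SETα addback, above the shares of all genes (34.3% and 31.8%). In SETβ addback they had peaks at 0 and 2 (22.2%), near the shares of all genes (8.41% and 18.4%). With a −log10 q of at least 5, 0 of the 9 had a peak in any library, where 2.62% to 4.52% of all genes had one in each addback library, so this count is near that of all genes. Of the 17 genes found in both SETα addback libraries and neither SETβ addback library, 5 were SR genes (Srsf3, Srsf4, Srsf5, Srsf9 and Srsf11), 4 Prp, 4 hnRNP, 2 Sm, 2 U1 or U2 and 0 Lsm. Srsf3, the smallest SR protein, had 8.41 and 6.50. Srsf5 had 6.88, at 4279 bases from the start, and 6.50, at 243 bases, and Srsf9 had 7.86 and 4.93. Srsf7 differed in having a SETβ peak as well, with 4.77 and 6.50 in SETα addback and 5.44 in SETβ addback replicate 2, beside Gemin6. Srsf10 had 3.51 and 5.70 with SETα and 4.10 in the same SETβ library. Srsf6 had peaks in SETα addback replicate 2 alone, the stronger at 4.60, and Srsf12 had none.

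Srsf11 shows how far such a pattern depends on the start site used. At the end of the gene (chr3:158010915-158036667) it had peaks in SETα addback alone, at 4.77 and 4.93. An internal RefSeq start, 4919 bases inside that end, had peaks in all 4 addback libraries, at 12.8 and 9.18 in SETα addback and 24.2 and 9.05 in SETβ addback. Fold enrichment there was 5.61, 4.56, 6.73 and 3.98. The peak entered both IDR lists, at rank 470 in SETα addback (chr3:158031260-158032141) and 420 in SETβ addback (chr3:158031677-158032150). By its internal start, Srsf11 thus belongs with Prpf6 among genes bound with both isoforms. The gene was singled out after its values were seen.

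**Figure D3:**
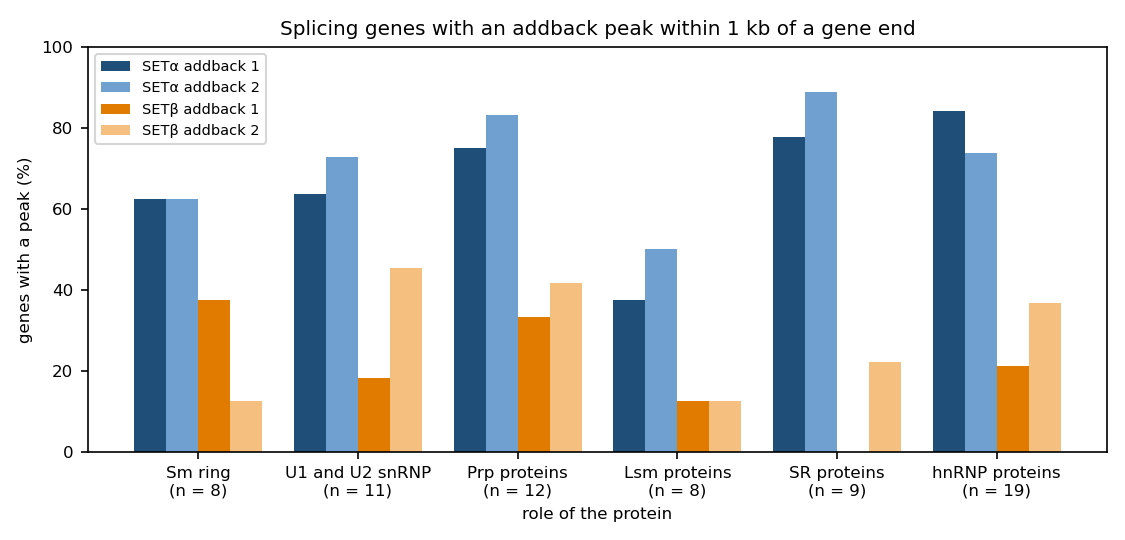
Percent of genes with a peak within 1 kb of a gene end, by role of the encoded protein, in each addback library. SR genes had a peak at 7 and 8 of 9 with SETα and at 0 and 2 with SETβ, and Lsm genes at 3 and 4 of 8 with SETα, from lists of unequal length; the shares of all genes were 34.3%, 31.8%, 8.41% and 18.4%.

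hnRNP genes had peaks at 16 and 14 of 19 in SETα addback and at 4 and 7 in SETβ addback. Hnrnpa0 had 10.0 and 6.50 with SETα and 5.05 and 4.71 with SETβ, with summits spread from -623 to 1102 bases from the start. Hnrnpul2 had 8.41 and 8.20 with SETα and 4.37 and 4.61 with SETβ, and an end of Ttc9c lies in the same window. In both genes each SETα value was above each SETβ value, though −log10 p from lists of unequal length is not on 1 scale. Hnrnpd, whose protein AUF1 binds AU-rich mRNA, had 9.22 and 5.70 with SETα and 4.16 in SETβ addback replicate 2. Hnrnpa2b1 had 6.88, 5.70 and 5.27 in the same libraries, beside the shared promoter region of Cbx3. Hnrnph3 had peaks with SETα alone, at 7.12 and 7.33. Hnrnpa1, one of the most abundant hnRNP proteins, was also found with SETα alone, at 6.15 and 4.20, in a window it shares with Cbx5. Hnrnpll (5.44 and 5.70) had the same pattern, and Hnrnpr (5.44 and 6.50) had it within the addback libraries. Hnrnpa3 had 5.44 and 5.70 with SETα and 3.98 in SETβ addback replicate 2, whereas Hnrnpdl had 4.77 and 5.70 with SETα and 3.70 in SETβ addback replicate 1. Hnrnpk had 7.86 and 4.60 with SETα and 4.62 in SETβ addback replicate 2, with the first and last at the far end of the gene (summits at 10087 and 10561 bases from the start) and the other near the start (-608). Hnrnpa1l2-ps2, listed as protein-coding although its symbol marks a pseudogene, had a single peak of 10.9 in SETα addback replicate 1. Hnrnph2, on the X chromosome, had none.

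Hnrnpu, a nuclear matrix protein gene, also depends on the start chosen. At the gene ends it had 4.20 in SETα addback replicate 2 and 4.12 in SETβ overexpression replicate 2, both at the far end of the gene. At its annotated start it had 15.5 in SETα addback replicate 1, 6.37 in SETα addback replicate 2 and 6.12 in SETβ addback replicate 1, with no peak there in SETβ addback replicate 2.

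**Figure D4:**
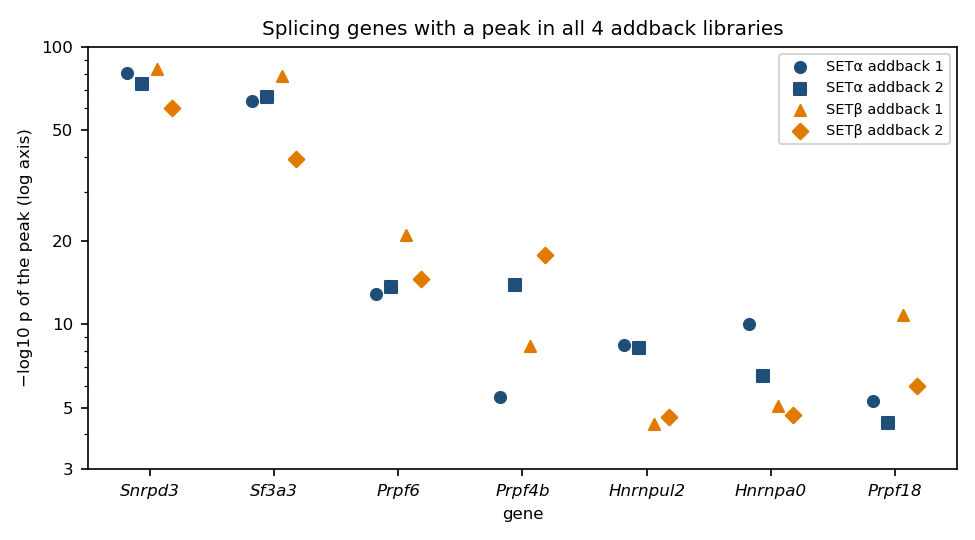
−log10 p of the strongest peak at the 7 splicing genes with a peak in all 4 addback libraries, on a log axis, 1 point per library. Snrpd3 and Sf3a3 lie between 39.4 and 83.5 in every addback library, and the other genes lie between 4.37 and 21.0.

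Snrpd3, Sf3a3 and Prpf6 lay above the median in every addback library, while each of the other 4 genes lay at or below it in at least 1. Among splicing genes with a peak, the median −log10 p in replicates 1 and 2 was 5.44 and 5.70 for SETα and 7.82 and 4.61 for SETβ in SET-KO cells, and the lowest values were 3.51, 3.51, 2.80 and 3.74. Another protein-coding gene had an end in the same window at 17 of 47 and 19 of 49 genes in SETα addback, and at 2 of 14 and 9 of 21 in SETβ addback, so a peak there cannot be assigned to 1 gene. The neighbour was not named above for every such gene. Sf3b4 (beside Mtmr11), Hnrnph3 (beside Pbld2) and Prpf31 (beside Tfpt) are examples in SETα addback.

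No peak at a gene end was found in any addback library at 9 splicing genes (13.4%), against 52.5% of all genes. These were Hnrnph2, Lsm5, Lsm7, Lsm8, Sf3b5, Snrpb2, Snrpf, Snrpn and Srsf12, and they had none in the overexpression libraries either. A peak in 1 addback library was found at 14 genes (20.9%), near the 19.6% of all genes. In 2 libraries it was found at 22 (32.8%, against 15.5%), in 3 at 15 (22.4%, against 7.23%) and in all 4 at 7 (10.4%, against 5.15%).

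In the overexpression libraries 5 splicing genes (7.46%) had a peak, against 3.68% of all genes. SETβ overexpression replicate 2 had all 5, with a −log10 p of 4.76 at Snrpd3, 4.14 at Srsf4, 4.12 at Hnrnpu, 3.45 at Hnrnpr and 3.16 at Lsm2. SETα overexpression replicate 2 had 1, at Srsf4, with 3.01. Both Srsf4 peaks had their summit at -640 or -626 bases from the start, while its SETα addback peaks (6.88 and 3.51) had theirs within 158 bases of it. None of the overexpression peaks passed a q of 0.05, and none appeared in a replicate 1 list. SETα overexpression placed 3337 and 4777 of its peaks in 1 segment of chromosome 6, and 0 of the 6 splicing genes on that chromosome lie in it.

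Peaks at splicing genes lay close to the start. The median distance from summit to nearest RefSeq start was 179 and 272.5 bases in SETα addback, against 308 and 282 for all genes with a peak, and 111 and 439 in SETβ addback, against 168 and 277. Splicing genes were thus nearer than all genes in 3 of the 4 libraries and farther in SETβ addback replicate 2. Summits within 250 bases of a start made up 63.4% and 47.6% in SETα addback (43.0% and 46.1% for all genes) and 63.6% and 42.1% in SETβ addback (60.7% and 46.7%). Where both SETα libraries had a peak at a gene, any peak of one near the gene ends overlapped any of the other at 26 of 39 splicing genes (66.7%), against 75.7% of all genes. At the others the libraries marked different positions near the same gene. Counted the same way, the SETβ libraries overlapped at 7 of 7, against 88.0%.

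**Figure D5:**
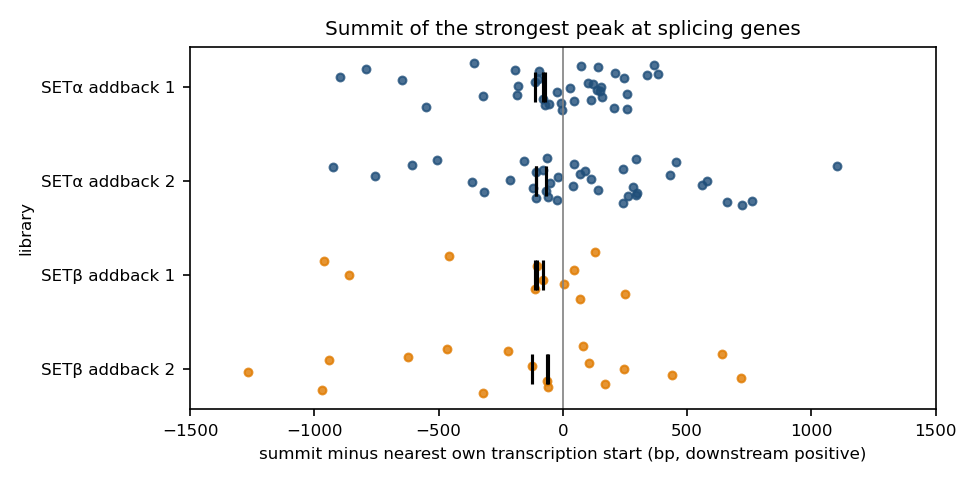
Distance in bases from the nearest RefSeq start to the summit of the strongest peak at each splicing gene, for the 4 addback libraries; negative values are upstream, and peaks beyond 1500 bases (4, 3, 0 and 2) are not drawn. Black ticks mark Snrpd3, Sf3a3 and Prpf6, all between -126 and -59 bases, and the height within a row only spreads the points. The median distances were 179, 272.5, 111 and 439 bases.

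Of the 8 short motifs searched on both strands of the 300-base promoters, CGGAAG was found in 31 of the 59 splicing gene promoters (52.5%), against 21.3% of all promoters and 34.8% of CpG-rich ones. Among CpG-rich promoters it was in 29 of 55 splicing genes (52.7%), in 66.9% of genes with an addback IDR peak and in 29.0% of genes with no library peak. GGGCGG was in 67.8% of splicing gene promoters, against 45.7% of all and 74.2% of CpG-rich ones. CCAAT was in 45.8% (39.1% of all and 37.6% of CpG-rich promoters) and CACGTG in 13.6% (7.74% and 11.4%). GCATGCG was in 10.2% (4.41% and 7.73%) and TCGCGA in 10.2% (3.32% and 6.32%). AAGATGG was in 5.08% (6.23% and 6.89%) and TATAAA in 6.78% (13.4% and 5.80%). GGGCGG and the others were counted separately where matches overlapped. A match to these letters is a description of the promoter and not a binding site.

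The other genes of the pathway, a list of 78 by known function of which 68 lie on the analysed chromosomes, had peaks at 43 and 38 (63.2% and 55.9%) in SETα addback and at 14 and 30 (20.6% and 44.1%) in SETβ addback, with 1 to 3 in each overexpression library. The shares of all genes were 34.3% and 31.8% in SETα addback and 8.41% and 18.4% in SETβ addback. In the overexpression libraries the other pathway genes with a peak made up 1.47% to 4.41%, against 0.338% to 1.90% of all genes. Each addback IDR list held 5 of them (7.35%), against 2.78% and 2.62% of all genes. Snrnp200, the helicase that unwinds U4 from U6, had an IDR peak with a −log10 p of 30.0 in SETα addback and 21.4 in SETβ addback. Snrnp27, of the tri-snRNP, had 39.4 and 13.8, Isy1, of the catalytic spliceosome, 34.0 and 19.9, and Cwc27, a cyclophilin-type protein, 26.1 and 24.8, beside Srek1ip1. Dhx16, a helicase that activates the spliceosome, was in the SETα addback list alone (9.22) and Aqr, an intron-binding helicase, in the SETβ addback list alone (6.99). Both had peaks in SETα libraries and in at least 1 SETβ library. At Snrnp200, Snrnp27, Isy1 and Cwc27, as at Snrpd3, Sf3a3 and Prpf6, all 4 addback libraries had a peak.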

How the data were processed

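HA ChIP-seq peak lists of 8 libraries (4 groups of 2) and 4 IDR lists were used. Per the submitters' processing notes, the tools named are Bowtie2, MACS2 and deepTools and the builds GRCm38 and mm10. The control library, caller thresholds and IDR settings are not given in the sources used here. Each deposited peak carries a score, a fold enrichment over background as a ratio, and −log10 p and −log10 q values from the authors' caller, and these describe and rank peaks within a list only. The deposited IDR lists hold, for the 2 libraries of a group together, a scaled score, the smaller −log10 p of the pair and a score for the −log10 of the global IDR.

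Genes and starts came from RefSeq tables on GRCm38.p6. A peak was assigned to a gene if it overlapped, by at least 1 base, the 1 kb either side of a gene end. The strongest peak there gave the gene's values. Counts were made with Python 3.11.15, pandas 2.3.3 and numpy 2.4.6, intervals with scipy 1.17.1 and plots with matplotlib 3.10.9. On simulated data (a list of 2518 peaks, 19235 genes, as for SETβ addback replicate 1), the overlap step was tested: 200 of 200 planted genes were recovered, with 0 differences from a plain loop. Precision is limited by 2 libraries a group, and total reads are unknown. Peaks on chromosomes 8 and 11 and on the mitochondrial genome were left out before counting and ranking. List sizes and ranks therefore refer to the remaining peaks and not to the full deposited lists. The number of value columns mapped to no sample was 0.

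Genes named were those with an IDR peak, those with a peak in an overexpression library, those with a peak in all 4 addback libraries, those with no peak, and other pathway genes with an IDR peak. The remaining genes named as examples were chosen after their values were seen. The genes, lists and motifs were chosen with earlier results of these data known. Alternatives were other windows, starts alone, summits, stricter q, lists of equal length, chromosome 6 left out, each library left out, and, added after seeing the data, a q of at most 0.05 and CpG-rich promoters alone. No test was run over genes. The SET-KO libraries without doxycycline were not used here, and the values of 1 gene counted in the totals are not reported here.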

Additional observations from a re-analysis of the deposited data

How the results depend on the processing

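No paired analysis was possible because the results are shares of genes counted in peak lists and come from no test. Addback minus overexpression (46.6 percentage points) was 36.2 with a window of 250 bp, 7.84 with a −log10 q of at least 5, 10.1 with the strongest 1343 peaks of each library and, added after seeing the data, 33.2 with a q of at most 0.05. Leaving out 1 library gave 44.0 to 49.3. In SET-KO cells SETα minus SETβ (45.5 points) was 36.6 with 250 bp, 2.24 with the q threshold of 5 and 1.49 with the strongest 1343 peaks, and 40.3 to 50.7 with 1 library left out. In SET-intact cells the difference (-2.99 points) ran from -6.72 to 0.746 with 1 library left out, and it turned in sign without SETβ overexpression replicate 2. The remaining alternatives moved these 3 differences by less than the spread between replicates. IDR shares of the addback groups ran from 2.99% to 6.78% in all 7 alternatives, within their counting interval. The cause of the changes with window and q threshold was not tested. Keeping an equal number of peaks from each library removes the difference in list length by construction. Read depth is unknown, so a missing peak says only that none was called.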
